A study of Mus musculus with 12 samples.

Results

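Small nuclear RNAs (snRNAs), small nucleolar RNAs (snoRNAs) and small Cajal body RNAs were taken from the array table by gene symbol. Every transcript cluster whose only annotated symbol began with Snora, Snord, Scarna or Rnu was kept, whatever its values. The rule gave 82 of the 35556 transcript clusters, from 64 distinct symbols. By class, 31 clusters were Snora (26 symbols), 32 were Snord (30 symbols), 4 were Scarna (3 symbols) and 15 were Rnu (5 symbols). Some clusters had the same values on all 12 arrays, so the 82 clusters held 72 distinct profiles. Rnu2-10 alone had 11 clusters, which held 6 distinct profiles.

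Snora symbols stand for H/ACA box snoRNAs, which guide the conversion of uridine to pseudouridine, mainly in ribosomal RNA. Snord symbols stand for C/D box snoRNAs, which guide methylation of the ribose 2′ hydroxyl, and Scarna RNAs guide the same modifications on spliceosomal snRNAs in Cajal bodies. Rnu symbols cover mainly snRNAs with their own genes, such as U2 of the major spliceosome, which binds the branch point of introns. Others are U12, its counterpart in the minor spliceosome, and U3, which is a snoRNA. Most snoRNAs of mammals are instead cut out of the introns of a host gene.

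The arrays were made from cerebrum and heart of C57BL/6J mice with the humanized knock-in genotype IKBKAP FDloxP/+, a model of familial dysautonomia, a neuropathy caused by a splicing mutation in that gene. PS mice received phosphatidylserine, a membrane phospholipid, at 200 mg/kg in the protocols (the source names write 200 mg per day), and MCT mice received the vehicle, medium-chain triglycerides, both by gavage of 100 µl on alternate days over 3 months, starting at an age of 4 months. Each of PS heart, MCT heart, PS cerebrum and MCT cerebrum had 3 arrays, labelled as biological replicates. The genotype label was the same on every array, and the series design names 6 FD mice, but one protocol lists 3 FD mice and 3 wild-type mice.

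Values are log2 intensities, on which a difference of 1 is a doubling. Array medians over all clusters lay between 4.89 and 5. Correlations between arrays of a group, over the clusters with 1 symbol, were 0.983 to 0.997. The tissue labels held: 7 heart muscle markers averaged 12.07 to 12.28 in the hearts and 5.47 to 5.66 in the cerebra. In the other direction, 6 neuronal markers averaged 4.89 to 5.11 in the hearts and 11.02 to 11.32 in the cerebra. Xist, which is transcribed from the inactive X chromosome in female cells, measured 8.92 to 9.13 in the 3 PS hearts, against 3.40 to 4.03 in the 3 MCT hearts. In heart, sex-linked expression and treatment therefore cannot be told apart. Xist was 9.55, 3.32 and 9.86 in PS cerebra 1, 2 and 3, against 3.34 to 3.77 in the MCT cerebra. The array reports RNA that survived a spin-column extraction, which recovers short RNAs incompletely, and a cluster cannot tell a mature small RNA from its precursor.

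In cerebrum, 6 Snora RNAs, 2 Snord RNAs and Scarna13 were lower in PS than in MCT mice, and Snord57 was higher. Of the 82 clusters, 49 had a mean high enough to be tested (at or above the 40th percentile of clusters with 1 symbol, a log2 value of 5.04). limma called 10 of them at an adjusted p under 0.05, 9 lower and 1 higher. Over all 12733 tested clusters the call rate was 5.76%, made up of 3.93% lower and 1.83% higher. At an unadjusted p under 0.05 there were 24 members, beside 29% of all tested clusters. Over all 82 members, tested or not, the median PS minus MCT difference was -0.19, beside 0.01 over all 21218 clusters with 1 symbol.

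The largest difference was that of Snora44, an H/ACA snoRNA encoded in the noncoding host gene Snhg12. Its values were 5.85, 5.83 and 5.85 in the PS cerebra, against 8.06, 8.42 and 7.77 in the MCT cerebra. All PS values lay far below all MCT values. The PS cerebrum with low Xist had the value of 5.83, and the part of sex-linked expression was not tested. The difference was -2.24 ± 0.15 (SE, n = 3 each; limma, adjusted p = 0.0109). Snora16a, from the same host gene, was 7.10, 6.91 and 7.49 in the PS cerebra, against 8.54, 8.84 and 8.77 in the MCT cerebra, again with no overlap. Its difference was -1.55 ± 0.16 (SE; limma, adjusted p = 0.0136). Snora61, the other measured member in Snhg12, overlapped between the groups, at 6.14, 6.07 and 6.27 in the PS cerebra and 6.45, 6.25 and 6.22 in the MCT cerebra. Its difference of -0.15 did not pass (adjusted p = 0.348 in limma). The 3 members in Snhg12 thus ran from -2.24 to -0.15, and these differences were not tested against each other.

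Scarna13, a small Cajal body RNA encoded in Snhg10, was 7.57, 7.52 and 7.94 in the PS cerebra, against 9.04, 9.18 and 9.31 in the MCT cerebra. The groups stood apart by more than 1 log2 unit, and the difference was -1.50 ± 0.13 (SE; limma, adjusted p = 0.0136). Snora73a and Snora73b, the 2 mouse forms of U17, are needed to cut the precursor of the small-subunit ribosomal RNA rather than to modify it, and both lie in Snhg3. Snora73a was 6.61, 6.32 and 7.05 in the PS cerebra, against 7.83, 8.25 and 7.85 in the MCT cerebra. Snora73b was 5.94, 5.82 and 6.24 in the PS cerebra, against 7.12, 7.37 and 7.37 in the MCT cerebra. Neither overlapped between the groups, and the differences were -1.32 for Snora73a (adjusted p = 0.0261) and -1.29 for Snora73b (adjusted p = 0.0136, both limma).

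The start regions of these 3 host genes are printed because their snoRNAs carry the largest differences in cerebrum, and none of the 3 hosts had a cluster of its own with 1 symbol. Each line gives 250 bases before and 50 after the annotated start, from RefSeq (GRCm38.p6), and capitals mark the longest run of C and T between 30 bases before and 20 bases after the start. Genes for the translation machinery and for snoRNA hosts often begin transcription in such a run, the 5′ terminal oligopyrimidine motif.
Snhg12, chr4:132308428-132308727, plus strand: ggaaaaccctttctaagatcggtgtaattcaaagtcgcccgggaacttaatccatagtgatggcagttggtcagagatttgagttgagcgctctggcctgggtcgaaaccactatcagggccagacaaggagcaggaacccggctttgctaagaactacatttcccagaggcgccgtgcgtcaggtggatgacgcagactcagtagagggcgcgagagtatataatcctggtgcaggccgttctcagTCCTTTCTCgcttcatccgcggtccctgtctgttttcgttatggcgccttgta
Snhg3, chr4:132353637-132353936, minus strand: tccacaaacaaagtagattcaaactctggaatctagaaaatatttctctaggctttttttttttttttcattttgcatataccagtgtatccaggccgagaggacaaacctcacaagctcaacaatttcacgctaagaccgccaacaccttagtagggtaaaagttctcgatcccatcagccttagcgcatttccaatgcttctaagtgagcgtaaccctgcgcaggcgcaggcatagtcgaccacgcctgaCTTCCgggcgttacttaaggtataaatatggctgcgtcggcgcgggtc
Snhg10, chr12:105032230-105032529, minus strand: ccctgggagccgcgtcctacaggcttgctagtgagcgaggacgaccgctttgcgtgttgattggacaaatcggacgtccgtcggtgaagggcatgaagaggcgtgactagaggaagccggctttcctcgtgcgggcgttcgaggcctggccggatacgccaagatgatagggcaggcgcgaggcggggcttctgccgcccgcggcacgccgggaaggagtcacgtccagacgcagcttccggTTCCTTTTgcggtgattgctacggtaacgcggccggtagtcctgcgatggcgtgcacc
The run had 9 bases in Snhg12, 5 in Snhg3 and 8 in Snhg10, and no more is read from 3 genes. A run of at least 8 bases stood in that interval in 12 of 37 host genes of members with a promoter entry (32.43%) and in 6182 of 27025 genes of the table (22.88%). TATAAA, searched on both strands over the 300 bases, was found in the Snhg3 window, and in 18.92% of the hosts and 15.67% of all genes. In Snhg3 it stands after the marked run, downstream of the annotated start.

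The remaining calls in cerebrum were smaller. Snord35b, a C/D snoRNA, was 4.86, 4.72 and 4.98 in the PS cerebra, against 6.17, 5.98 and 5.61 in the MCT cerebra (difference -1.07, adjusted p = 0.0227 in limma). Snord104, also of the C/D type, was 7.49, 7.43 and 7.93 in the PS cerebra, against 8.72, 8.80 and 8.36 in the MCT cerebra (difference -1.01, adjusted p = 0.0314). The H/ACA RNAs Snora34 and Snora31 differed by -0.76 (adjusted p = 0.0424) and -0.71 (adjusted p = 0.0318). None of these 4 overlapped between the groups, with Snora31 coming nearest: its lowest MCT value was 5.53 and its highest PS value 5.17.

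Snord57, a C/D snoRNA in an intron of Nop56, moved the other way. It was 9.94, 9.76 and 9.80 in the PS cerebra, against 9.12, 9.20 and 8.76 in the MCT cerebra. Every PS value exceeded every MCT value, by a mean of 0.81 ± 0.13 (SE; limma, adjusted p = 0.0277). Nop56, its host and itself a core protein of C/D snoRNPs, differed by -0.20 in cerebrum, which did not pass.

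**Figure D1:**
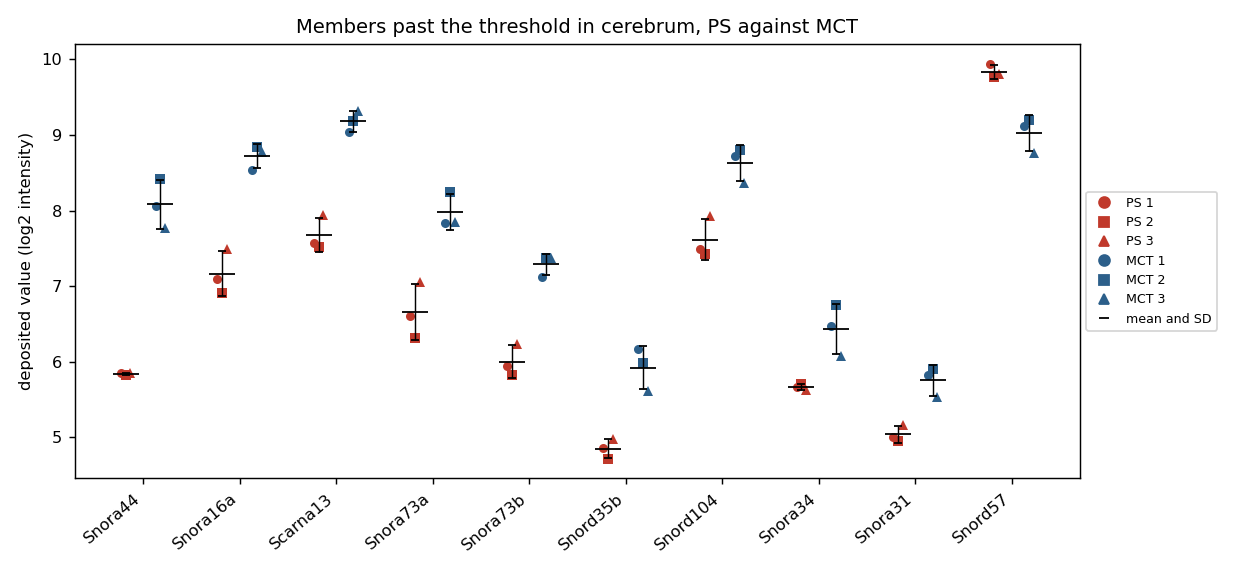
Deposited log2 values of the 10 members past the threshold in cerebrum, with 1 symbol per array, PS in red to the left of MCT in blue, and mean and SD over 3 arrays. In 9 members all PS points lie below all MCT points, and in Snord57 all lie above.

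Several members came close to the threshold without passing. The 2 clusters of Snora3 differed by -0.96 and -0.94 (limma, adjusted p = 0.0516 and 0.0536), Snord33 by -0.35 (adjusted p = 0.0518) and Snora74a by -0.44 (adjusted p = 0.0812). Snord49b (-0.53), Snord47 (-0.49) and Scarna17 (-0.62) had adjusted p values of 0.106, 0.184 and 0.157. None of the 15 Rnu clusters (5 symbols, with 11 clusters of Rnu2-10) passed in cerebrum, although all 15 differences were negative, from -0.55 to -0.0033. The lowest belonged to 3 Rnu2-10 clusters with equal values (adjusted p = 0.0750). Rnu12 was 4.98, 5.43 and 5.34 in the PS cerebra, against 5.68, 5.86 and 5.59 in the MCT cerebra, a difference of -0.46 (adjusted p = 0.0793). Among Snora clusters the most positive difference was that of Snora23, at 0.38, which did not pass (adjusted p = 0.175).

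By class, the direction in cerebrum was counted over all clusters. Of 31 Snora clusters 22 were lower and 7 higher, with a median of -0.27, and the groups did not overlap in 9 lower and 2 higher. The 2 higher were both of Snora19, untested and equal in value, and 2 of the 9 lower were of Snora3. Of 32 Snord clusters 18 were lower and 14 higher, with a median of -0.04, and 6 lower and 1 higher did not overlap. Over all members 22 clusters lay wholly lower and 3 wholly higher in PS mice. The share of all clusters with 1 symbol that did so was 14.3% for lower and 11.2% for higher.

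The cerebrum calls rested on the full set of arrays. The count of 10 became 0 without PS 1 or without MCT 1 (19 members each at an unadjusted p under 0.05), 1 (Snora44) without MCT 2, 6 without PS 2, and 15 without PS 3 or without MCT 3. Over all clusters, 734 calls became 0 without PS 1 or MCT 1, 2 without MCT 2 and 145 without PS 2. They became 1557 without PS 3 and 615 without MCT 3. Markers of striatal neurons moved with the treatment groups: 4 of 10 were lower in PS mice in limma and none higher. Their mean was 6.75, 6.85 and 8.76 in the PS cerebra, against 9.43, 9.60 and 9.44 in the MCT cerebra. Of 2 oligodendrocyte markers, Mog was lower (-0.73, adjusted p = 0.0444) and Mobp did not pass, with means of 8.31 to 8.76 in the PS cerebra and 8.73 to 9.42 in the MCT cerebra. None of 4 endothelial markers passed and 3 had an unadjusted p under 0.05, with means of 6.49 to 7.04 in the PS cerebra and 6.09 to 6.59 in the MCT cerebra. The part of these markers in the snoRNA differences was not tested. In whole tissue, fewer cells of a type and less RNA per cell cannot be told apart.

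In heart, the U2 gene Rnu2-10 and the U12 gene Rnu12 were lower in PS than in MCT mice, and no other member passed. limma called 12 of the 52 tested members (clusters with a mean of at least 4.935), all lower. They hold 2 symbols and 7 distinct profiles, so 12 is not a count of separate RNAs. Over all 12736 tested clusters the call rate was 0.33%, of which 0.173% were lower and 0.157% higher. At an unadjusted p under 0.05 there were 34 members, beside 23.7% of all tested clusters. The median difference over all 82 members was -0.40, beside -0.02 over all clusters with 1 symbol.

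Heart MCT 3 stood apart from the other MCT hearts in these genes. It lay below both of them in 61 of 82 member clusters (74.4%), against 37.7% of all clusters with 1 symbol. The gap was widest in the Snora class, where 25 of 31 clusters were lower and the median was -0.75 against the mean of MCT 1 and MCT 2. For Rnu clusters it was 14 of 15 (11 of the 15 are Rnu2-10), with a median of -0.44. For Snord clusters it was 18 of 32, with a median of -0.16. Atrial muscle markers also differed between the MCT hearts, with means of 6.91, 7.13 and 8.35 for MCT 1 to 3, beside 6.62, 7.08 and 7.83 in the PS hearts. Of the 4 markers, Myl7 (4.37, 5.08 and 8.53), Myl4 (7.90, 7.86 and 9.62) and Sln (4.04, 4.07 and 4.80) were highest in MCT 3. Nppa went the other way, at 11.34, 11.51 and 10.44 in MCT 1 to 3. What part these markers had was not tested. Results for heart are therefore given with and without this array.

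All 11 Rnu2-10 clusters were lower, with log2 differences from -1.62 to -1.24. The 3 clusters with the largest difference, equal in value, were 8.52, 8.78 and 8.58 in the PS hearts, against 10.50, 10.28 and 9.95 in the MCT hearts. No PS heart reached the lowest MCT heart, which was MCT 3, and the difference was -1.62 ± 0.16 (SE, n = 3 each; limma, adjusted p = 0.0103). Another 4 equal clusters were 9.46, 9.41 and 9.14 in the PS hearts, against 10.96, 10.69 and 10.30 in the MCT hearts, a difference of -1.31 ± 0.18 (SE; adjusted p = 0.0337). U2 genes occur in near-identical copies, so which copy gave the signal is uncertain.

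Rnu12 was 4.96, 4.79 and 5.08 in the PS hearts, against 6.23, 6.07 and 5.82 in the MCT hearts. The groups stood apart, with a difference of -1.10 ± 0.15 (SE; limma, adjusted p = 0.0337). The other 3 Rnu genes lay too low to be tested but also did not overlap between the groups. Rnu3a, a U3 gene (U3 acts in the first cuts of the ribosomal RNA precursor), was 3.84, 3.72 and 3.78 in the PS hearts, against 4.48, 4.47 and 4.07 in the MCT hearts. Rnu5g, a U5 gene, and Rnu7, whose RNA acts in 3′ end formation of histone mRNA, differed by -0.32 and -0.28. All 15 Rnu clusters thus lay wholly lower in PS hearts, where 12.3% of all clusters with 1 symbol did so. The 15 come from 5 symbols, and 11 of them are Rnu2-10, some with equal values. They are therefore not 15 separate RNAs.

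Without MCT 3 all 12 of these calls held. The calls depended on other arrays: the count became 0 without PS 1, PS 3 or MCT 2 (29, 28 and 26 members at an unadjusted p under 0.05), and 4, all Rnu2-10, without PS 2 or MCT 1. Over all clusters, 42 calls became 7 without PS 1, 6 without PS 3 and 4 without MCT 2. They became 12 without PS 2 and 11 without MCT 1. Endothelial markers differed between the same groups, with a mean of 9.02, 9.34 and 9.22 in the PS hearts, against 8.24, 8.55 and 8.71 in the MCT hearts. None of those 4 markers passed the threshold in limma and all 4 had an unadjusted p under 0.05. Their part in the snRNA differences was not tested.

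**Figure D2:**
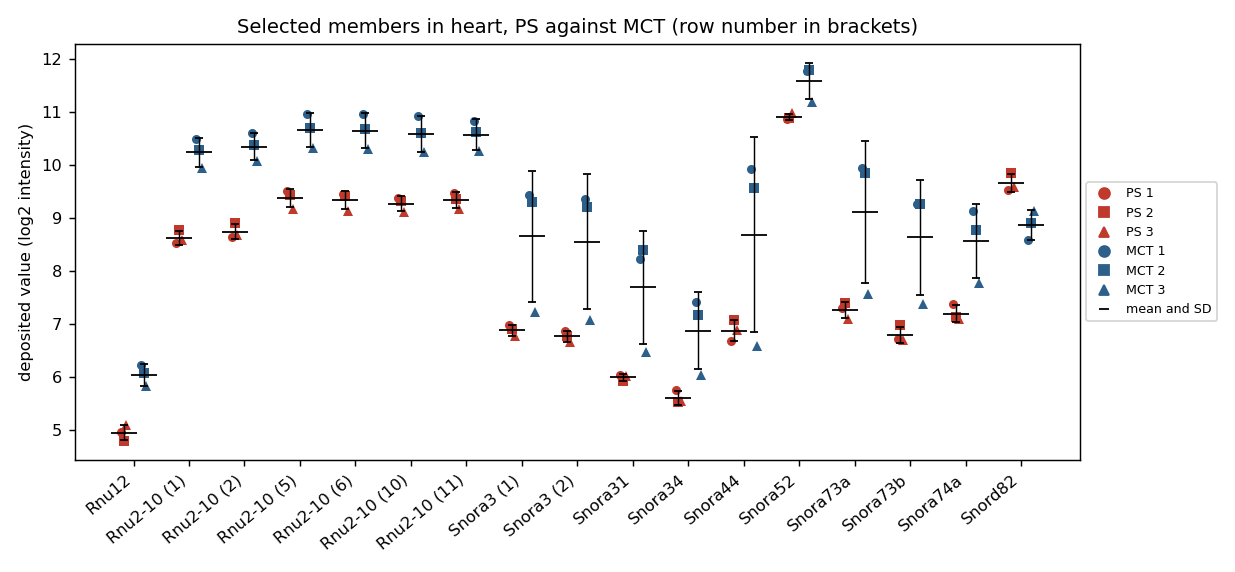
Deposited log2 values in heart of the called Rnu clusters (1 for each distinct profile of Rnu2-10, with its number in brackets) and of Snora and Snord members named in the text. PS is in red to the left of MCT in blue, with mean and SD over 3 arrays. Heart MCT 3, the blue triangle, lies nearer to the PS points than to the other MCT points in all Snora members shown, and above all PS points in Rnu2-10 and Rnu12.

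No Snora cluster passed in heart, although all 31 differences were negative, with a median of -0.51. In 21 clusters the groups did not overlap, beside 12.3% of all clusters with 1 symbol. Snora19, Snora30 and Snora5c each gave 2 of these with equal values, and Snora3 and Snora21 each gave 2, so they are not 21 separate RNAs. Snora73b was 6.71, 6.97 and 6.70 in the PS hearts, against 9.26, 9.27 and 7.37 in the MCT hearts. The difference of -1.84 ± 0.46 (SE) did not pass in limma (adjusted p = 0.123), and MCT 3 lay nearer to the PS hearts than to the other MCT hearts. Snora73a had the most negative difference of all members in heart, -1.85, with 7.30, 7.39 and 7.10 in the PS hearts, against 9.94, 9.85 and 7.56 in the MCT hearts (adjusted p = 0.137).

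The same pattern of 1 low MCT heart recurred in other H/ACA RNAs. Snora3 was 6.97, 6.90 and 6.77 in the PS hearts, against 9.44, 9.30 and 7.23 in the MCT hearts in its first cluster. Snora31 was 6.04, 5.92 and 6.01 in the PS hearts, against 8.22, 8.39 and 6.46 in the MCT hearts. In both, MCT 3 lay above all PS hearts but nearer to them than to the other MCT hearts. Snora44, the most changed member in cerebrum, was 6.67, 7.07 and 6.88 in the PS hearts, against 9.92, 9.57 and 6.58 in the MCT hearts. There MCT 3 was below every PS heart, so that the groups overlapped (adjusted p = 0.203 in limma).

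Snora74a and Snora34 had the lowest p values of the class beside Snora73b. Snora74a was 7.37, 7.13 and 7.09 in the PS hearts, against 9.13, 8.77 and 7.78 in the MCT hearts (difference -1.36, adjusted p = 0.119). Snora34 differed by -1.27 (adjusted p = 0.123). Snora52 had a narrow spread among PS hearts, with 10.87, 10.89 and 10.98, against 11.78, 11.80 and 11.20 in the MCT hearts (difference -0.68, adjusted p = 0.125).

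Leaving out MCT 3 raised the heart count to 33 members, 32 lower and 1 higher, while 3416 clusters passed in all. They comprised 15 Snora clusters lower, 4 Snord lower and 1 higher, Scarna13 lower and the same 12 Rnu clusters. Measured from MCT 1 and MCT 2 the median Snora cluster of the PS hearts was -0.74, and measured from MCT 3 it was -0.28. For Rnu clusters these medians were -1.49 and -0.96.

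The C/D and Cajal body classes showed no common direction in heart. Of 32 Snord clusters 19 were lower and 13 higher, with a median of -0.04. The groups did not overlap in 2 lower and 2 higher, beside 12.3% lower and 11.3% higher over all clusters with 1 symbol. The 2 lower were both of Snord118, untested and equal in value, so they are not 2 separate RNAs. No Snord cluster passed in limma. The lowest p belonged to Snord82, a C/D snoRNA of the nucleolin gene Ncl, which was 9.54, 9.85 and 9.59 in the PS hearts, against 8.58, 8.90 and 9.13 in the MCT hearts. All PS values were above all MCT values, by a mean of 0.79 (adjusted p = 0.118). Snord35a (-0.67, adjusted p = 0.160) and Snord95 (0.48, adjusted p = 0.184) followed. Scarna13 overlapped, at 7.46, 7.44 and 7.86 in the PS hearts and 8.69, 8.56 and 7.54 in the MCT hearts (-0.68, adjusted p = 0.213). Scarna17 differed by 0.20 (adjusted p = 0.574).

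**Figure D3:**
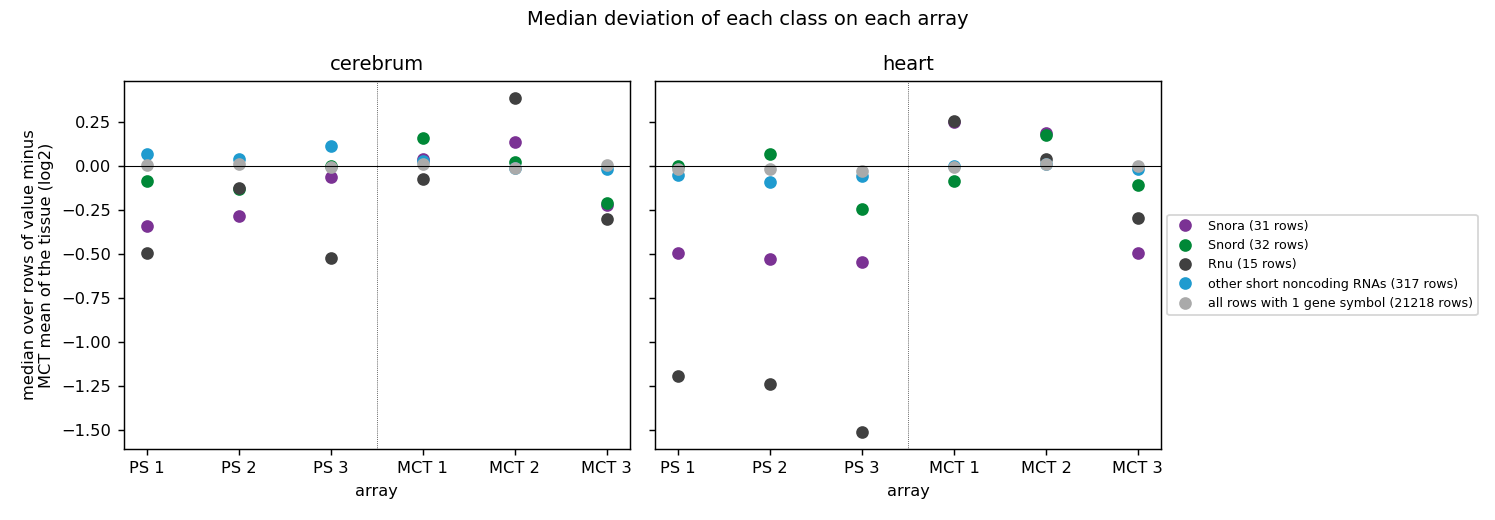
Median over the clusters of a class of the log2 value minus the MCT mean of that cluster in the same tissue, for each array, PS arrays left of MCT arrays. Rnu in heart lies at -1.19 to -1.51 on the PS arrays, Snora at -0.50 to -0.54, with heart MCT 3 also at -0.50 for Snora, while the clusters with 1 symbol stay near 0.

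Array by array, the Snora median lay at -0.50, -0.53 and -0.54 from the MCT mean on the PS hearts, against 0.25, 0.19 and -0.50 on the MCT hearts. Heart MCT 3 was thus at the PS level for this class. The Rnu median lay at -1.19, -1.24 and -1.51 on the PS hearts, against 0.26, 0.04 and -0.29 on the MCT hearts, so no MCT heart approached the PS level. In cerebrum the Snora median was -0.34, -0.28 and -0.06 on the PS arrays, against 0.04, 0.14 and -0.22 on the MCT arrays, which overlapped. The 317 clusters of other short noncoding RNAs, mostly microRNA genes, had medians of -0.05, -0.09 and -0.06 on the PS hearts and 0.07, 0.04 and 0.11 on the PS cerebra.

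Many members had differences of the same sign in both tissues. Of the 64 symbols, each by its first cluster, 39 were lower in PS mice in both tissues and 8 higher in both. Another 5 were lower in cerebrum alone and 12 in heart alone. Spearman's correlation between the PS minus MCT differences in the 2 tissues was 0.64 over the 64 symbols and 0.21 over all 21218 clusters with 1 symbol. The labels do not tie hearts to cerebra, and with low Xist in PS cerebrum 2 and in no PS heart, the PS hearts and PS cerebra did not all come from the same mice if their labels are right.

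**Figure D4:**
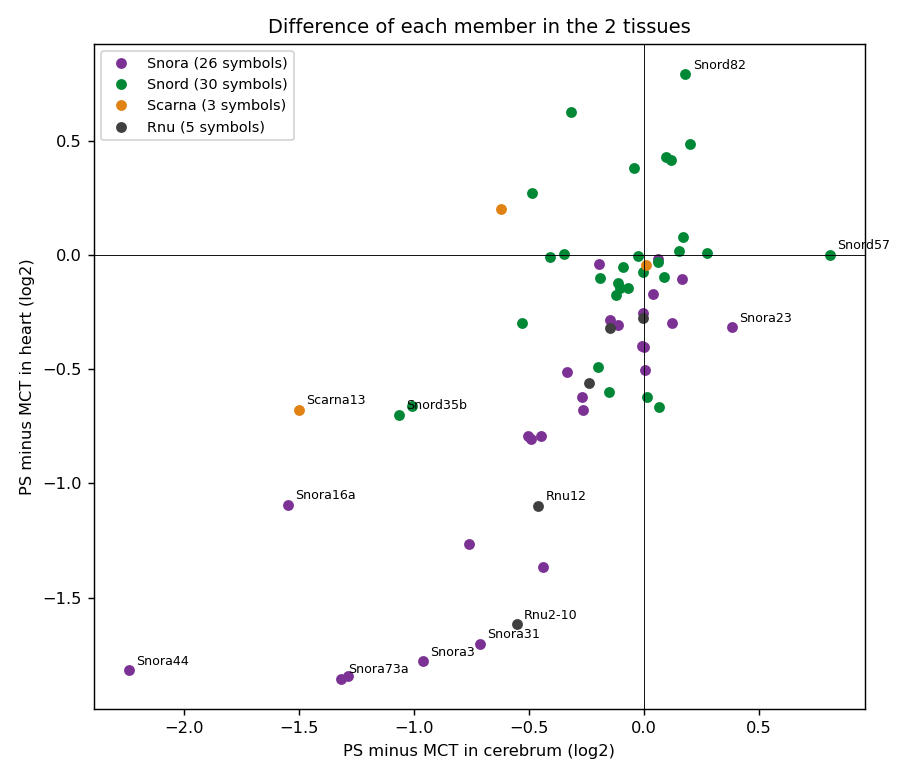
PS minus MCT difference in log2 units of each symbol (first cluster) in cerebrum, on the horizontal axis, and in heart, on the vertical axis, coloured by class. Snora44, Snora73a, Snora73b, Snora16a and Snora3 lie at the lower left, Snord82 is high in heart, and Snord57 is high in cerebrum and at 0 in heart.

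The PS difference itself differed between the tissues for few members. Over all 12 arrays limma tested 48 members and called 4, all with a more negative difference in heart, beside 1.52% of 12731 clusters (0.424% in that direction and 1.1% in the other). They are Snord57 and the 3 equal Rnu2-10 clusters. Snord57 was 10.05, 10 and 9.83 in the PS hearts and 9.89, 9.95 and 10.04 in the MCT hearts, so the PS difference of 0.00 in heart stood against 0.81 in cerebrum. Their difference was -0.81 ± 0.17 (SE; limma, adjusted p = 0.0437). For Rnu2-10 the heart difference of -1.62 stood against -0.55 in cerebrum, a difference of -1.06 ± 0.24 (SE; adjusted p = 0.0487). The count was 21 without heart MCT 3, 1 without cerebrum PS 3 and 0 without any 1 of 9 other arrays, with 15 to 21 members at an unadjusted p under 0.05 in those 9 fits. Without cerebrum MCT 2 it was 4 clusters, all of Rnu2-10 (39 over all clusters). Calls over all clusters numbered 1629 without heart MCT 3 and 364 without cerebrum PS 3, beside 194 with all arrays. In the 9 fits they numbered 3 to 145. With the replicate number as a block no cluster of the table passed, and 18 members had an unadjusted p under 0.05 in limma.

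Between the tissues, under MCT, 20 members were higher in heart than in cerebrum and 3 lower, of 48 tested. The call rate over all clusters was 75.5% (35.2% higher and 40.3% lower), above the share of members called. Centring each array on its median over the clusters with 1 symbol moved all heart minus cerebrum differences by 0.33. Those medians were 5.62 to 5.64 in the MCT hearts and 5.94 to 5.98 in the MCT cerebra. After this centring 36 members were higher and 1 lower, so the split depends on the scaling. Without heart MCT 3, 39 were higher and 3 lower. Snord42b, a C/D snoRNA, was the member that stayed lower in heart after centring. It was 6.44, 6.39 and 5.47 in the MCT hearts, against 8.14, 8.36 and 7.76 in the MCT cerebra, a difference of -1.99 (adjusted p = 1.52e-04 in limma). Under PS it was 6.19, 6.20 and 5.69 in the hearts, against 8.01, 8.36 and 7.88 in the cerebra, so the tissue difference appeared in both sets of mice.

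Higher in heart were Snora74a (1.97, adjusted p = 3.13e-04), Snora31 (1.94, adjusted p = 0.00373), Snord35a (1.66, adjusted p = 9.86e-05), Snora73b (1.35, adjusted p = 0.0237) and Scarna17 (1.22, adjusted p = 0.00157). Snord35a, one of the C/D snoRNAs within the ribosomal protein gene Rpl13a, was 8.14, 8.31 and 7.56 in the MCT hearts, against 6.57, 6.38 and 6.08 in the MCT cerebra. Scarna17 was 9.85, 10.14 and 9.48 in the MCT hearts, against 8.76, 8.94 and 8.10 in the MCT cerebra. Hearts and cerebra did not overlap for either RNA. Scarna13 (-0.91) and Snord95 (-0.70) were lower in heart (adjusted p = 0.0147 and 0.00469), but neither passed after centring. Without heart MCT 3 the difference of Scarna13 was -0.55, and it lost its call without cerebrum MCT 3. The call of Snora73b was lost without any 1 of the other 5 MCT arrays.

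Under PS, limma called 31 of 44 tested members between the tissues, 18 higher in heart and 13 lower, beside 75.9% of all clusters (38.3% higher and 37.6% lower). The same centring moved the differences by 0.22 and gave 26 higher and 1 lower. The 11 Rnu2-10 clusters, lower in heart under PS with differences from -0.54 to -0.34, were among the 13, and none of them passed after centring. Under MCT the Rnu2-10 clusters were higher in heart, by 0.39 to 0.76, and 4 of the 11 passed.

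**Figure D5:**
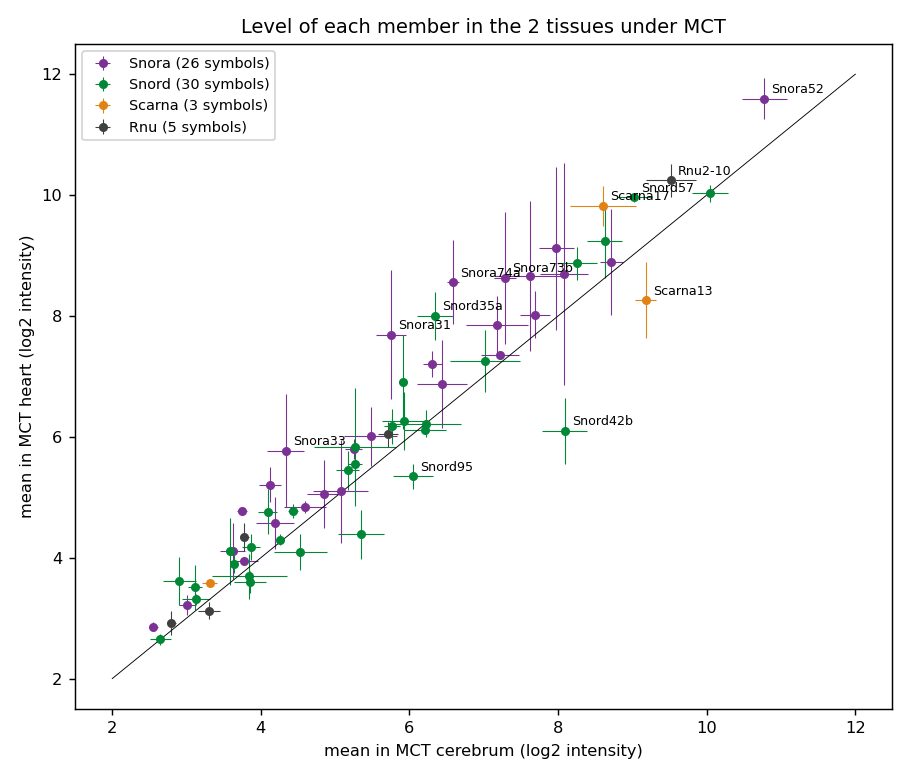
Mean log2 value of each symbol (first cluster) in MCT cerebrum, on the horizontal axis, and MCT heart, on the vertical axis, with SD over 3 arrays and the line of equality. Most members lie above the line and Snord42b farthest below it; centring the arrays would move all points upward by 0.33.

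Host genes were compared with the members they contain. By RefSeq annotation, 59 of the 64 symbols lay within another gene, and Rnu12, Rnu2-10, Rnu3a, Rnu7 and Snord118 did not. For 36 members the host had a cluster of its own, 31 hosts in all. Where a host had several, up to 17 for Rpl17, only the cluster with the highest mean was compared. Clusters of 1 host could differ: the 4 of Gas5 ran from -0.09 to 0.84 in heart, and the cluster used gave 0.06. No host passed in limma in either tissue: 0 of 30 tested in cerebrum (9 at an unadjusted p under 0.05, beside 29% of all clusters) and 0 of 31 in heart (13 unadjusted, beside 23.7%). The median host difference was -0.14 in cerebrum and -0.05 in heart.

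Over the 36 members the median difference was -0.0033 in cerebrum and -0.12 in heart, and 16 of 36 in cerebrum and 20 of 36 in heart were lower than their host's. Neither direction was common to these 36 pairs. Of the 10 members called in cerebrum, only Snora31, Snora34 and Snord57 are among them, and Rnu2-10 and Rnu12, called in heart, are not. Over all 82 members the medians were -0.19 in cerebrum and -0.40 in heart, so the pairs leave out most changed members. Among the members named above, Snora31 lies in Tpt1, which encodes the translationally controlled tumor protein. Snora31 differed by -0.71 in cerebrum and -1.70 in heart, and Tpt1 by -0.11 and -0.06. Snora34 differed by -0.76 and -1.27, and its host Kansl2, of a histone acetyltransferase complex, by 0.03 and -0.05. Snora3 differed by -0.96 and -1.78, and its host Rpl27a, a ribosomal protein gene, by -0.30 and -0.28. Pairs in which the host had the more negative difference include Snora62 in Rpsa, a ribosomal protein gene (0.0033 for Snora62 and -0.45 for Rpsa in cerebrum), and Snora41 in Eef1b2, of a translation elongation factor (-0.02 for Snora41 and -0.58 for Eef1b2 in heart). Over the 36 pairs Spearman's correlation between member and host differences was 0.05 in cerebrum and 0.27 in heart, as a description over pairs that share arrays and, in part, hosts.

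Length and signal varied with the differences. Annotated lengths ran from 53 to 275 bases, with a median of 119 for Snora and 69.5 for Snord symbols. Spearman's correlation between length and the PS minus MCT difference was -0.36 in cerebrum and -0.62 in heart over the 64 symbols. Within the 26 Snora symbols it was -0.39 and -0.49, and within the 30 Snord symbols -0.15 and -0.24. Spearman's correlation between the MCT level and the difference was -0.69 in cerebrum and -0.79 in heart for Snora, and -0.17 and -0.18 for Snord, where level and difference share the MCT arrays. Their part in the class differences was not tested.

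For clusters of the proteins that work with these RNAs, the call rates over all clusters were 5.76% in cerebrum and 0.33% in heart, and 29% and 23.7% at an unadjusted p under 0.05. Of 25 tested clusters for proteins of snoRNPs and Cajal body RNPs, limma called 2 in cerebrum. Rrp9, a protein specific to the U3 snoRNP, was higher (0.54, adjusted p = 0.0248), and Nhp2, a core protein of H/ACA RNPs, was lower (-0.45, adjusted p = 0.0342). None passed in heart (9 at an unadjusted p under 0.05). None of 25 clusters for snRNA transcription and processing passed in cerebrum (4 unadjusted) or heart (10 unadjusted). Of 26 for snRNP assembly and transport, none passed in cerebrum (8 unadjusted) or heart (7 unadjusted). Noncoding snoRNA host genes with clusters of their own gave no call among 10 tested in cerebrum (0 unadjusted) or 9 in heart (3 unadjusted).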

How the data were processed

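Per the labels' protocols, tissue RNA was isolated on RNeasy Plus Mini columns and prepared for hybridisation with an Affymetrix whole-transcript (WT) kit. Per the submitters' processing notes, the authors used Affymetrix Expression Console. They deposited log2 values, 1 per transcript cluster and array. For its version, background correction, normalization and build, the answer is: not given in the sources used here. Where processing equalises array medians, a change common to every transcript cannot be seen. The scale was taken from the values, which ran from 1.9 to 13.11.

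Symbols came from the platform annotation, which listed 23099 clusters, 21218 of them with 1 symbol and 1881 with several. All 64 member symbols matched the RefSeq table by gene ID. The table holds no strand for a comparison, so a host was any other gene whose span contained the member.

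Comparisons used limma 3.58.1 (lmFit, eBayes) in R 4.3.3 on clusters with 1 symbol whose mean reached the 40th percentile, with Benjamini-Hochberg adjustment over all tested clusters and a threshold of 0.05. The scripts were tested on simulated data. Each tissue was fitted apart, and the difference of the PS effect over all 12 arrays. A given SD or SE covers 3 arrays a group, and the number of arrays limits the precision. Whether cerebrum and heart came from the same mouse is not stated. Deviations of same-numbered arrays correlated at -0.26 to 0.11 between PS and MCT cerebra and at 0.03 to 0.12 between PS and MCT hearts, so those numbers were not taken as pairs. Between heart and cerebrum they correlated at 0.05 to 0.12 under PS and at 0.10 to 0.29 under MCT. Differently numbered arrays were not compared, so these values cannot tell whether the numbers pair those arrays. The reported fits have no block, and the closing section gives the blocked counts.

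Named were members called in a tissue or in the difference between tissues, every Rnu symbol, and some called members of the lists. Of the other short noncoding RNAs called, those lower in PS mice were named and the 4 higher in cerebrum were not. Also named were up to 5 members in each direction between tissues. The rule added the 3 tested members of each class with the lowest p among those not called. Outside that rule, Snora3, Snora31, Snora44, Snora52 and Snora73a in heart, Snora23 and Snora61 in cerebrum, and Rn7sk were picked with their values in view. The members, lists and tests were chosen with earlier results of these data known. Alternatives covered scaling, filters, clusters tested, intensity trend, array weights, a replicate block, 1 fit of all arrays and leaving out each array.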

Additional observations from a re-analysis of the deposited data

Results flagged for a closer look

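For 2 members the PS minus MCT difference itself differed between heart and cerebrum in limma. The value for Rnu2-10 was -1.06, in 3 clusters with equal values (heart -1.62, cerebrum -0.55). For Snord57 it was -0.81 (heart 0.00, cerebrum 0.81). Over all clusters 1.52% passed this test. With the replicate number as a block neither passed, nor did any other cluster.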

How the results depend on the processing

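The cerebrum count of 10 members became 6 with all clusters of the table tested, 27 with array weights (3407 over all clusters, beside 734), 0 with a replicate block (28 members at an unadjusted p under 0.05 in limma) and 4 in 1 fit of all 12 arrays, and ranged from 0 to 15 with 1 array left out. With that block no cluster at all passed in cerebrum. The heart count of 12 became 4 with all clusters tested, 2 with 1 cluster per symbol, 44 with array weights (6987 over all clusters, beside 42), 23 in 1 fit of all arrays (1567 over all) and, chosen after seeing the data, 7 with equal clusters counted once. It ranged from 0 to 33 with 1 array left out. The count of 23 between tissues under MCT became 37 after centring and 45 with array weights, with a range of 18 to 42, and 31 with the replicate block, under which no named member lost its call. The count of 31 under PS became 20 with 1 cluster per symbol, ranged from 27 to 32, and was 32 with the block. The count of 4 for the difference between tissues became 1 after quantile normalization, without the filter or with 1 cluster per symbol, 0 with all clusters tested (23 members at an unadjusted p under 0.05) or with the replicate block (18 unadjusted), 2 with equal clusters counted once, and ranged from 0 to 21. The replicate numbers were not taken to pair PS with MCT arrays, and whether arrays of a number share a batch was not tested. The mean of the 4 atrial markers was highest in replicate 3 of both heart groups, at 7.83 under PS and 8.35 under MCT. Of these markers, Nppa was lowest there in both groups. The heart count was 13 with the block. The cause of these changes was not tested, apart from counting equal clusters once or 1 cluster per symbol, which leave fewer clusters.

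The median member difference ranged from -0.29 to -0.13 in cerebrum and from -0.44 to -0.33 in heart with 1 array left out. Between tissues under MCT it was 0.39, and 0.73 after centring, with a range of 0.28 to 0.56. The heart difference of Scarna17 was -0.0096 with array weights in both its clusters, against 0.20 otherwise, the only reversals among 846 comparisons of 54 single values. Of those, 623 kept their side of the threshold, 177 lost it and 44 gained it. Low signal limits the 30 members untested in heart and the 33 untested in cerebrum, and no detection calls were used here.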

Other observations

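Clusters annotated to several genes at once were left out of the comparisons. Of these, 4 clusters with equal values were annotated to 4 Rnu3 symbols each, copies of the U3 RNA gene. They were 5.71, 5.60 and 5.73 in the PS hearts, against 6.81, 7.07 and 6.13 in the MCT hearts, a mean difference of -0.99 with no overlap. In cerebrum they were 6.26, 6.07 and 6.43 in the PS mice and 6.27, 6.32 and 5.92 in the MCT mice, which overlapped. Another 9 clusters were annotated to 3 Rnu1 symbols each, copies of the U1 snRNA gene, which binds the 5′ splice site. Their differences ran from -0.34 to -0.18 in heart and from 0.09 to 0.24 in cerebrum; the Rnu2-10 clusters ran from -1.62 to -1.24 in the same hearts. No test was run on these clusters.

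Other short noncoding RNA genes outside the rule were tested in the same fits. In cerebrum 4 of 61 were higher and 1 lower, beside 1.83% higher and 3.93% lower over all clusters. In heart 1 of 54 was lower, beside 0.173% lower over all clusters. Only the called ones that were lower are given below, and the 4 higher in cerebrum are not named. Rmrp, the RNA of the nuclease RNase MRP, was 9.19, 8.85 and 9.31 in the PS cerebra, against 9.90, 10.12 and 9.62 in the MCT cerebra, a difference of -0.76 (limma, adjusted p = 0.0437). In heart Rmrp was 9.34, 9.40 and 9.34 in the PS mice, against 10.96, 10.93 and 9.36 in the MCT mice, with MCT 3 among the PS values. Rny1, a Y RNA, was 7.20, 7.63 and 7.44 in the PS hearts, against 8.51, 8.96 and 8.54 in the MCT hearts. The groups did not overlap, MCT 3 was not low, and the difference was -1.25 (adjusted p = 0.0337). Rn7sk, an abundant noncoding RNA that holds back the transcription elongation factor P-TEFb, differed by -0.11 in heart and -0.08 in cerebrum and did not pass in either.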
